A study of Mus musculus with 3 samples.

Results

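The D cyclins, the CDK inhibitors and the retinoblastoma family decide together whether a cell passes from G1 into S phase. The set described here was chosen by name and holds 10 of the 22709 genes in the deposited files. These are the D cyclins Ccnd1, Ccnd2 and Ccnd3, the inhibitors Cdkn1a, Cdkn1b, Cdkn1c and Cdkn2c, and the pocket proteins Rb1, Rbl1 and Rbl2. Polyadenylated RNA was sequenced in 3 libraries of the mouse line C2C12, mesenchymal precursors that grow as myoblasts and can turn towards muscle or bone. The library labelled shKSRP came from cells transfected with a short hairpin RNA against KSRP and kept without treatment in growth medium with 20% fetal serum. The BMP2 library came from mock-transfected cells titled DM + BMP2, where the protocol's differentiation medium (DM) has 2% horse serum and its bone morphogenetic protein 2 was used at 100 to 300 ng/ml. That sample's description reads mock_1d and names neither BMP2 nor the medium, so its treatment rests on its title and source label. The mock library came from mock-transfected, untreated cells in growth medium. Each group holds 1 library of 1 cell line, so there is no replicate spread, no difference has a p-value, and no difference can be told apart from variation between cultures or preparations. The BMP2 library differs from mock in medium and BMP2 together.

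In the textbook account, growth factors raise the D cyclins, which bind the kinases Cdk4 and Cdk6 and phosphorylate the pocket proteins. Phosphorylated pocket proteins release E2F factors, which switch on genes for S phase. The Cip/Kip inhibitors p21 (Cdkn1a), p27 (Cdkn1b) and p57 (Cdkn1c) bind cyclin-kinase complexes, whereas the INK4 inhibitor p18 (Cdkn2c) binds the kinases themselves. In cultured myoblasts, leaving the cycle is known to go with p21, cyclin D3, Rb and p130 (Rbl2). KSRP, the product of Khsrp, binds AU-rich elements and promotes mRNA decay, and p21 mRNA is among its reported targets in these cells.

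Levels are FPKM, fragments scaled by transcript length and by the mapped fragments of the library, summed per gene over the RefSeq transcripts and the transcripts that Cufflinks assembled at the same locus. FPKM is per length, so levels of different genes can be set side by side within a library. The ± after a value is the half-width of the deposited 95% interval, which covers counting and assignment error only. The interval widths correspond to 68.7 M (mega) fragments in the library labelled shKSRP, 60.6 M in the BMP2 library and 62.4 M in the mock library. Ratios are log2 ratios of FPKM + 1, and a gene is called higher or lower where this ratio is at least 1 in size, a rule of size and no test. Khsrp mRNA stood at 28.4 ± 0.640 FPKM in the library labelled shKSRP, 27.1 ± 0.666 FPKM in the BMP2 library and 31.4 ± 0.852 FPKM in the mock library, with 50.5% of the mock value on an assembled transcript. The mRNA of the targeted gene thus does not set the library labelled shKSRP apart from the BMP2 library, and its directions carry that doubt about its label. The 5 myoblast markers checked, such as Des and Myod1, were at 1 FPKM or more in every library, but they were not steady. Myf5 stood at 48.4 ± 1.18 FPKM in the library labelled shKSRP, 9.09 ± 0.545 FPKM in the BMP2 library and 7.75 ± 0.496 FPKM in the mock library. Cdh15 stood at 31.1 ± 0.878 FPKM in the library labelled shKSRP, 5.02 ± 0.343 FPKM in the BMP2 library and 38.3 ± 0.933 FPKM in the mock library. Of 20 markers of macrophage, epithelial, endothelial, adipocyte and chondrocyte cells, those reaching 1 FPKM in any library were Cd14, Csf1r and Col2a1. The summed chondrocyte list was at 0.0556 FPKM in the library labelled shKSRP, 68.9 FPKM in the BMP2 library and 6.97 FPKM in the mock library, nearly all of it Col2a1, with Col9a1 at 0 in each. The macrophage list summed to 4.81 FPKM in the library labelled shKSRP, 12.7 FPKM in the BMP2 library and 12.4 FPKM in the mock library, with Adgre1 at 0 in each. The part of these markers in the results below was not tested, and fewer cells of a type and less RNA per cell cannot be told apart in such libraries.

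Promoter sequences are shown for Cdkn2c and Rbl1. Cdkn2c has 2 annotated starts and assembled transcripts that begin near the upstream one, and Rbl1 is the textbook E2F-controlled gene among the pocket proteins. The windows come from the RefSeq promoter table of GRCm38.p6, a different build from the mm9 of the deposited files, and run from 250 bases before to 50 bases after a start. That table matched 6 of the 10 genes with 9 windows. In both Cdkn2c sequences the capitals mark the transcribed bases, and in the Rbl1 sequence they mark an E2F motif.
Cdkn2c upstream start, chr4:109666707-109667006, minus strand: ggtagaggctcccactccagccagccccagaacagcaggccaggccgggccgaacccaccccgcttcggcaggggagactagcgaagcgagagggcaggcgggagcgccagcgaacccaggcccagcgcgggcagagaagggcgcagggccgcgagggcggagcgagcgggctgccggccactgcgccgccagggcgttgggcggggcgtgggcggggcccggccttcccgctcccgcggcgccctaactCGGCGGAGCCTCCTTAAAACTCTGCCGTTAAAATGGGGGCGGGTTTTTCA
Cdkn2c RefSeq start, chr4:109665323-109665622, minus strand: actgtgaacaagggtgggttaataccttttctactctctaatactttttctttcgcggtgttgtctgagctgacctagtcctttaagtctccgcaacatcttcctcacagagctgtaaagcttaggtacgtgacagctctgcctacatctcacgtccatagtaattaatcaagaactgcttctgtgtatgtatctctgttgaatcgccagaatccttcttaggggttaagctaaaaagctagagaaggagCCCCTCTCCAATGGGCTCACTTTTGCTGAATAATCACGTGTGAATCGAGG
Rbl1, chr2:157204485-157204784, minus strand: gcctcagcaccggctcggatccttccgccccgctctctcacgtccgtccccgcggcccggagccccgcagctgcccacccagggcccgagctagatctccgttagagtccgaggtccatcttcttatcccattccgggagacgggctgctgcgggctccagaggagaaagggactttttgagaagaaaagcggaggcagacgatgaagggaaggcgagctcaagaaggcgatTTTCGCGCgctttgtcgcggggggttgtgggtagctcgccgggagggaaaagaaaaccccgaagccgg
The upstream Cdkn2c window holds 73.3% G and C and the downstream one 44%, and their starts lie 1384 bases apart. The E2F motif was searched on both strands as TTTCCCGC, TTTCGCGC, TTTGCCGC or TTTGGCGC. It stands in the Rbl1 window with its first base at position −18 from the start and in no other window of the set, so in 1 of 9, and it stands in 2.26% of the 32851 windows of the table. A match is a description of the letters, and its absence says only that these letters are not in the window.

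AU-rich elements were read from the longest 3′ UTR of each gene in the GENCODE M21 transcripts. The nonamer TTATTTATT was found in none of the 10 UTRs. Among UTRs of similar length it is held by between 2.29% (for Cdkn2c) and 21.7% (for Ccnd2). The shorter core ATTTA, which overlaps the nonamer, occurred 11 times in the 1709 bases of Rb1, 10 times in Cdkn1b, 5 times each in Ccnd1 and Rbl2, 4 times each in Cdkn1a and Rbl1, and 3 times in Cdkn1c. It occurred 2 times in the 5173 bases of Ccnd2 and once each in Ccnd3 and Cdkn2c. The median over UTRs of similar length was 3 for Rb1, 5 for Ccnd1, 2 for Cdkn1a and 9 for Ccnd2. It was 6 for Cdkn1b, 3 for Rbl1, 2 for Rbl2, 1 each for Cdkn1c and Ccnd3, and 0 for Cdkn2c. The Cdkn1a sites are shown because p21 mRNA is a reported KSRP target, with ATTTA in capitals and positions counted from the first base of the UTR.
Cdkn1a 3′ UTR 99 to 119: gtgttttaATTTAaacgtctc
Cdkn1a 3′ UTR 158 to 178: ttaaagttATTTAaaaaaaga
Cdkn1a 3′ UTR 268 to 288: ttattattATTTAagcccctc
Cdkn1a 3′ UTR 1314 to 1334: atacttctcgatgATTTAtaa

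Set against mock, cyclin D1 and p18 mRNAs were lower in both the library labelled shKSRP and the BMP2 library, and p130 mRNA was higher in both. Cyclin D2 mRNA was higher in the library labelled shKSRP. Of these calls, that of cyclin D1 in the BMP2 library was the only one to hold in every alternative setting tried. All 10 genes passed the filter of 1 FPKM in at least 1 library, and 8 were at 1 FPKM or more in every library. Cdkn1c, which was below 1 FPKM in the mock library, would not have passed on its mock value. Of the 9 genes above 0 in both libraries, 2 were higher and 2 lower in the library labelled shKSRP than in mock, while 20.4% of all 10822 genes compared were called (9.55% higher and 10.9% lower). In the BMP2 library against mock 1 was higher and 2 were lower of 10, beside 14.9% of 10908 genes called (7.66% higher, 7.23% lower). Between the library labelled shKSRP and the BMP2 library 1 of 9 was called, higher, beside 11.5% of 10872 genes (4.73% higher, 6.74% lower), so the share of the set is near the background. With FPKM scaled to the same sum in each library, 2 of the set were higher and 1 lower in each comparison with mock. The median log2 ratio of all genes to mock was then 0.29 for the library labelled shKSRP and 0.26 for the BMP2 library. Without this scaling it was −0.01 for the library labelled shKSRP and 0.04 for the BMP2 library. The share of all genes called under this scaling is not given here, and the shares above do not apply to it. Both comparisons with mock share the mock library, so a gene with an odd mock value moves in both.

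**Figure D1:**
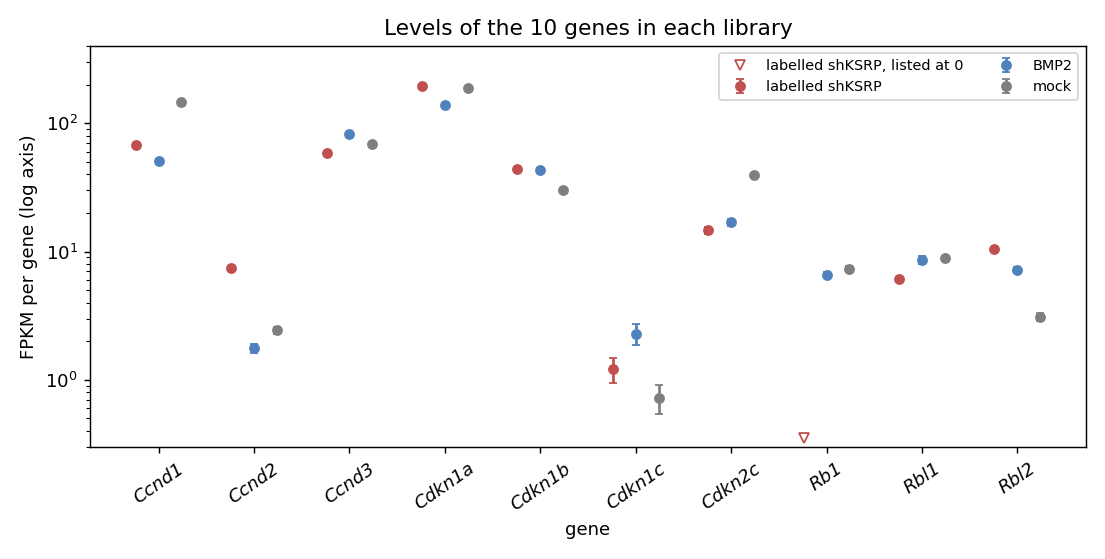
FPKM of each gene (log axis) in the library labelled shKSRP, the BMP2 library and the mock library, with bars for the half-width of the deposited 95% interval and an open triangle for Rb1, which is listed at 0. Ccnd1 and Cdkn2c are highest in the mock library and Rbl2 is lowest there.

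Ccnd1 encodes cyclin D1, the D cyclin most tied to serum and growth signals (chromosome 7, 152115836 to 152125830, minus strand, mm9). It stood at 67.1 ± 1.01 FPKM in the library labelled shKSRP, 51.0 ± 1.19 FPKM in the BMP2 library and 146 ± 1.56 FPKM in the mock library. The log2 ratio to mock was −1.11 for the library labelled shKSRP (−1.15 to −1.07 over the interval bounds) and −1.50 for the BMP2 library (−1.55 to −1.45). In the BMP2 library 67.3% of the value stood on 2 assembled transcripts, 1 of which (12.8 ± 0.645 FPKM) starts at 152124908 and so inside the annotated gene, whereas the other libraries had the RefSeq transcript alone. Both libraries lay below mock by far more than the interval error, and the BMP2 library was the lower of them (log2 ratio of the library labelled shKSRP to the BMP2 library 0.39). With the RefSeq transcript alone, the BMP2 library had a log2 ratio to mock of −3.06, and the library labelled shKSRP was called higher than the BMP2 library (1.95). With FPKM scaled to the same sum in each library, the ratio of the library labelled shKSRP to mock was −0.77 and no longer called.

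Ccnd2 encodes cyclin D2, a close relative with tissue-restricted use (chromosome 6, 127075727 to 127101066, minus strand). It was scarce in every library, at 7.41 ± 0.270 FPKM in the library labelled shKSRP, 1.76 ± 0.140 FPKM in the BMP2 library and 2.43 ± 0.162 FPKM in the mock library. The library labelled shKSRP thus held the highest value, with a log2 ratio of 1.29 to mock (1.18 to 1.41) and 1.61 to the BMP2 library (1.49 to 1.73). The BMP2 library lay slightly below mock (log2 ratio −0.31, not called). With the trend over transcript length taken out, the ratio of the library labelled shKSRP to mock was 0.91, and with a pseudocount of 5 it was 0.74, neither of which is called. Ccnd2 had the widest range over the libraries among the genes above 0 in all, and of 9304 other genes Lrrc30 and Lcor were among those nearest to it in both ratios to mock (distances 0.02 and 0.14 in log2 units over 3 libraries). These genes reach at most 2.27 and 2.35 FPKM, both in the library labelled shKSRP, so their likeness rests on low values and the added 1.

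Ccnd3 encodes cyclin D3, the D cyclin that stays abundant in differentiated muscle cells (chromosome 17). It stood at 58.6 ± 1.35 FPKM in the library labelled shKSRP, 81.8 ± 1.70 FPKM in the BMP2 library and 68.4 ± 1.59 FPKM in the mock library. The log2 ratio to mock was −0.22 for the library labelled shKSRP and 0.26 for the BMP2 library, outside the interval error and not called. With FPKM scaled to the same sum the direction turned for the library labelled shKSRP, at 0.12. All of it stood on 1 RefSeq transcript of 1979 nt that starts at 47730416, and both transcripts that start at 47642000 were listed at 0 in each library. The longer of these (2118 nt) was marked as supported by reads over its full length in the library labelled shKSRP and in mock. Its 0 there may be a missing estimate. Exons of Bysl on the opposite strand overlapped those of Ccnd3 by 358 nt in the library labelled shKSRP, 358 nt in the BMP2 library and 1078 nt in the mock library. How strand was handled is not given here, so reads of the overlap cannot be told apart.

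The make-up of the D cyclins differed between the libraries. Their summed FPKM was 133 ± 1.71 in the library labelled shKSRP, 135 ± 2.08 in the BMP2 library and 217 ± 2.24 in the mock library. The BMP2 sum and shares include 34.3 FPKM on assembled Ccnd1 transcripts, and with RefSeq transcripts alone Ccnd1 made up 16.6% of the D cyclins in that library. Ccnd1 made up 50.4% of that sum in the library labelled shKSRP (49.5% to 51.3% over the interval bounds), 37.9% in the BMP2 library (36.9% to 38.9%) and 67.3% in the mock library (66.6% to 68.1%). Ccnd3 made up 44.0% in the library labelled shKSRP, 60.8% in the BMP2 library, where it was the most abundant D cyclin, and 31.5% in the mock library. The ratio of Ccnd3 to Ccnd1 FPKM was 0.874 in the library labelled shKSRP, 1.61 in the BMP2 library and 0.468 in the mock library. Ccnd2 came to 5.57% in the library labelled shKSRP, 1.31% in the BMP2 library and 1.12% in the mock library.

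**Figure D2:**
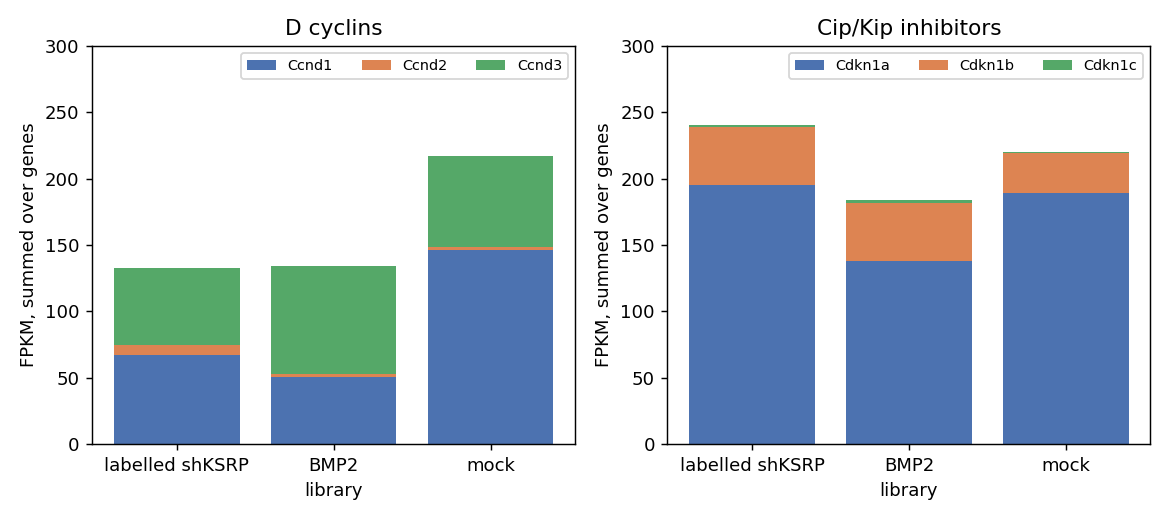
Stacked FPKM of the D cyclins (left) and the Cip/Kip inhibitors (right) in the library labelled shKSRP, the BMP2 library and the mock library. The D cyclin sum is 133 and 135 FPKM in the library labelled shKSRP and the BMP2 library and 217 FPKM in the mock library, with Ccnd3 the larger part in the BMP2 library and Ccnd1 in mock.

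Among the inhibitors, p21 was the most abundant in every library and was not called in any comparison. Cdkn1a (chromosome 17, 29230717 to 29237667, plus strand) stood at 195 ± 2.49 FPKM in the library labelled shKSRP, 138 ± 2.23 FPKM in the BMP2 library and 189 ± 2.57 FPKM in the mock library. The library labelled shKSRP and mock were nearly level (log2 ratio 0.04, 0.00 to 0.08), and the BMP2 library was the lowest (log2 ratio to mock −0.45, −0.50 to −0.41). All of it was given to the shorter of its 2 RefSeq transcripts (1910 nt), and the other was listed at 0 in every library. That other transcript was marked as supported by reads over its full length in each library, so its 0 may be a missing estimate. Trp53, whose protein p53 is the best known activator of p21, stood at 99.9 ± 2.03 FPKM in the library labelled shKSRP, 56.1 ± 1.61 FPKM in the BMP2 library and 85.0 ± 1.94 FPKM in the mock library. Myod1, the myogenic factor that also induces p21, stood at 34.8 ± 1.07 FPKM in the library labelled shKSRP, 17.3 ± 0.890 FPKM in the BMP2 library and 30.7 ± 1.19 FPKM in the mock library. For both genes the BMP2 library held the lowest value, with ratios to mock that were not called. Myc, an upstream factor that represses p21, was also lowest in the BMP2 library and was called lower there (log2 ratio to mock −1.47). Foxo1 and Foxo3, FOXO factors known to activate p27 and from the same list of upstream factors, did not share this order. Foxo3 stood at 8.77 ± 0.360 FPKM in the library labelled shKSRP, 7.63 ± 0.268 FPKM in the BMP2 library and 4.76 ± 0.253 FPKM in the mock library, neither ratio to mock being called. Foxo1 stood at 9.96 ± 0.320 FPKM in the library labelled shKSRP, 8.87 ± 0.321 FPKM in the BMP2 library and 8.66 ± 0.446 FPKM in the mock library. The part of these upstream factors in the levels of p21 and p27 mRNA was not tested.

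Cdkn1b encodes p27, which holds cells in G1 when growth factors are withdrawn (chromosome 6, 134870419 to 134875543, plus strand). It stood at 43.9 ± 1.11 FPKM in the library labelled shKSRP, 43.5 ± 1.20 FPKM in the BMP2 library and 30.0 ± 1.3 FPKM in the mock library. Both libraries lay above mock by a like amount, with log2 ratios of 0.54 for the library labelled shKSRP (0.44 to 0.63) and 0.52 for the BMP2 library (0.42 to 0.62), which were not called, and they did not differ beyond the interval error (log2 ratio 0.01, −0.06 to 0.09). How far p27 mRNA differs depends on the transcripts that are counted. The spliced RefSeq transcript alone stood at 29.4 ± 0.902 FPKM in the library labelled shKSRP, 32.3 ± 0.951 FPKM in the BMP2 library and 7.86 ± 0.573 FPKM in the mock library, which gives log2 ratios to mock of 1.78 for the library labelled shKSRP and 1.91 for the BMP2 library, both past the rule of size. In the mock library 73.8% of the gene's FPKM stood on 3 assembled transcripts, 2 of them spliced and 1 a single exon of 2443 nt. In the library labelled shKSRP 33.0% of it, and in the BMP2 library 25.7%, stood on a single-exon transcript that begins inside the last intron of the RefSeq transcript.

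Cdkn1c encodes p57, an imprinted inhibitor (chromosome 7, 150644244 to 150646955, minus strand). It was near the limit of measurement, at 1.21 ± 0.263 FPKM in the library labelled shKSRP, 2.29 ± 0.415 FPKM in the BMP2 library and 0.724 ± 0.182 FPKM in the mock library. The log2 ratio of the BMP2 library to mock was 0.93 (0.59 to 1.26) and was not called. It was called with a pseudocount of 0.1 (1.53) and with FPKM scaled to the same sum (1.06), and it turned to −0.03 with RefSeq transcripts alone. The RefSeq transcripts alone did not separate the libraries, at 0.764 FPKM in the library labelled shKSRP, 0.686 FPKM in the BMP2 library and 0.724 FPKM in the mock library. The surplus of 1.6 FPKM in the BMP2 library stood on 2 assembled transcripts.

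Cip/Kip mRNA summed to 240.1 ± 2.74 FPKM in the library labelled shKSRP, 184 ± 2.56 FPKM in the BMP2 library and 220.2 ± 2.89 FPKM in the mock library. Cdkn1b made up 18.3% of it in the library labelled shKSRP, 23.7% in the BMP2 library and 13.6% in the mock library. With RefSeq transcripts alone the Cdkn1b share was 13.1% in the library labelled shKSRP, 18.9% in the BMP2 library and 3.97% in the mock library. Over all transcripts, Cdkn1a made up 81.2% in the library labelled shKSRP, 75.1% in the BMP2 library and 86.1% in the mock library. With Cdkn2c added, the summed inhibitors stood at 1.91 times the summed D cyclins in the library labelled shKSRP, 1.49 times in the BMP2 library and 1.20 times in the mock library. These ratios count assembled transcripts, and the D cyclin sum of the BMP2 library includes 34.3 FPKM on assembled Ccnd1 transcripts. The order of the library labelled shKSRP and the BMP2 library therefore depends on the transcripts counted.

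Cdkn2c encodes p18, an inhibitor that binds Cdk4 and Cdk6 (chromosome 4, 109333481 to 109337977 for the RefSeq transcript, minus strand). It stood at 14.6 ± 0.892 FPKM in the library labelled shKSRP, 16.8 ± 1.07 FPKM in the BMP2 library and 39.6 ± 1.60 FPKM in the mock library. The log2 ratio to mock was −1.38 for the library labelled shKSRP (−1.52 to −1.24) and −1.19 for the BMP2 library (−1.33 to −1.05). Both were well below mock and close to each other (log2 ratio −0.19). With the trend over transcript length taken out the ratio was −0.89 for the library labelled shKSRP and −0.89 for the BMP2 library, and with FPKM scaled to the same sum that of the BMP2 library was −0.93, none of them called. With RefSeq transcripts alone the ratio of the BMP2 library, −0.997, just missed the rule.

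In each library Cufflinks assembled a second Cdkn2c transcript of 3 exons, whose first exon lies upstream of the RefSeq start. Its start lay 1410 nt upstream in the library labelled shKSRP, 1381 nt in the BMP2 library and 1386 nt in the mock library, near the distance between the annotated starts shown above. This transcript stood at 8.96 ± 0.581 FPKM in the library labelled shKSRP, 8.17 ± 0.607 FPKM in the BMP2 library and 21.3 ± 0.958 FPKM in the mock library. The transcript from the RefSeq start stood at 5.67 ± 0.677 FPKM in the library labelled shKSRP, 8.67 ± 0.885 FPKM in the BMP2 library and 18.3 ± 1.29 FPKM in the mock library. The upstream start thus held 61.2% of the gene's FPKM in the library labelled shKSRP (56.9% to 65.6% over the interval bounds), 48.5% in the BMP2 library (44.2% to 53.0%) and 53.9% in the mock library (51.0% to 56.7%). Both transcripts were lower than in mock, and the bounds of the shares in the library labelled shKSRP and the BMP2 library do not overlap. Those of the BMP2 library and mock do overlap. The lowest bound in the library labelled shKSRP (56.9%) lies just above the highest in mock (56.7%).

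**Figure D3:**
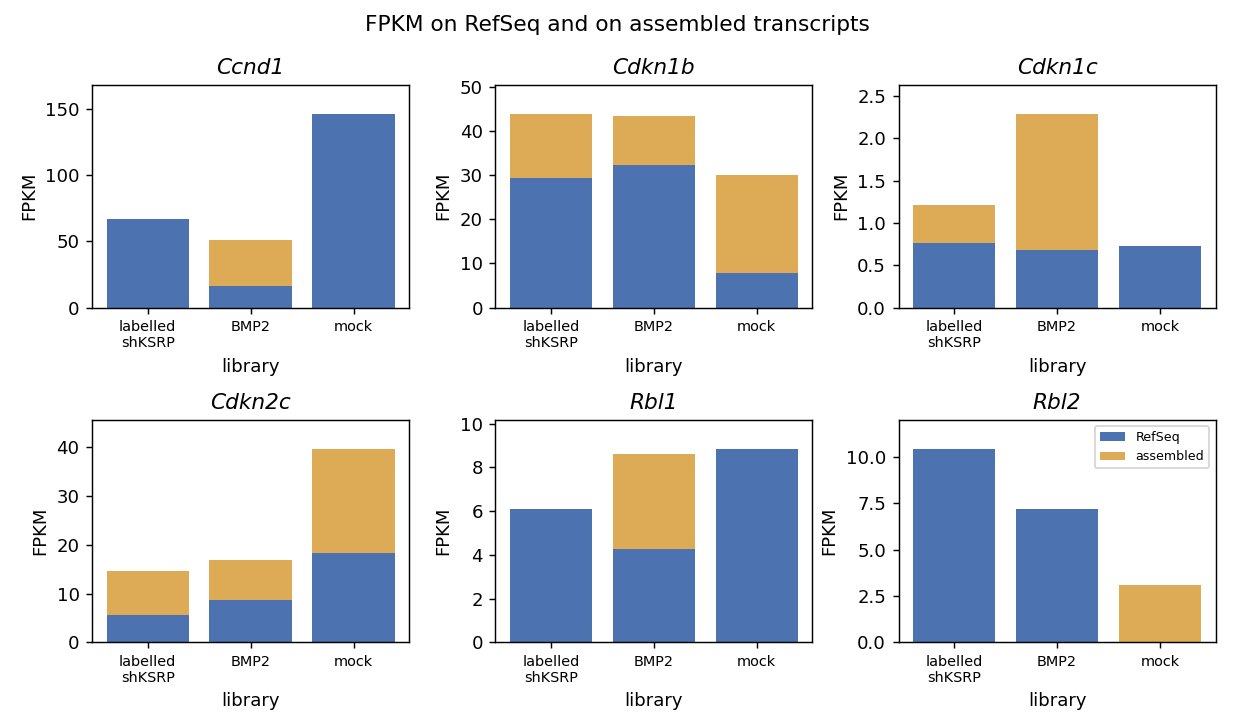
FPKM on RefSeq transcripts (blue) and on assembled transcripts (ochre) for 6 genes in the library labelled shKSRP, the BMP2 library and the mock library, each panel with its own axis from 0. The assembled part is 73.8% of Cdkn1b in mock, 67.3% of Ccnd1 in the BMP2 library and all of Rbl2 in mock.

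The pocket proteins differed from each other. Rbl2 encodes p130, the pocket protein that is typical of resting cells (chromosome 8, 93593993 to 93647743, plus strand). It stood at 10.5 ± 0.373 FPKM in the library labelled shKSRP, 7.19 ± 0.338 FPKM in the BMP2 library and 3.10 ± 0.214 FPKM in the mock library. The log2 ratio to mock was 1.48 for the library labelled shKSRP (1.36 to 1.61) and 1.00 for the BMP2 library (0.87 to 1.14). The second stood right at the rule of size and falls short of it in 4 of the 7 alternatives that gave a ratio. The first falls short with a pseudocount of 5 (0.93). RefSeq transcripts alone and the most abundant one gave no ratio to mock. In the mock library the RefSeq transcript was listed at 0 although it was marked as supported by reads over its full length, and the gene's FPKM stood on an assembled transcript of 5681 nt in place of 4888 nt. The ratios therefore compare different transcript models. Exons of Aktip on the opposite strand overlapped those of Rbl2 by 1505 nt in the library labelled shKSRP, 1515 nt in the BMP2 library and 2352 nt in the mock library. Aktip itself stood at 24.3 ± 0.925 FPKM in the library labelled shKSRP, 25.1 ± 0.822 FPKM in the BMP2 library and 20.3 ± 0.846 FPKM in the mock library, and reads of the overlap cannot be told apart without strand.

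Rbl1 encodes p107, a pocket protein that is itself an E2F target and typical of cycling cells (chromosome 2, 156971630 to 157030270, minus strand). It stood at 6.07 ± 0.267 FPKM in the library labelled shKSRP, 8.60 ± 0.559 FPKM in the BMP2 library and 8.85 ± 0.404 FPKM in the mock library. The library labelled shKSRP was the lowest (log2 ratio to mock −0.48, −0.59 to −0.36), and the BMP2 library did not differ from mock beyond the interval error (−0.04, −0.18 to 0.11). In the BMP2 library 50.7% of this value stood on an assembled transcript of 2 exons and 1991 nt at the 3′ end of the gene. The full-length RefSeq transcript of 4883 nt stood at 6.07 ± 0.267 FPKM in the library labelled shKSRP, 2.77 ± 0.221 FPKM in the BMP2 library and 6.69 ± 0.299 FPKM in the mock library. Counting no transcript but the most abundant RefSeq one gave a log2 ratio of the BMP2 library to mock of −1.03, and the BMP2 library, not the library labelled shKSRP, was the lowest. The short RefSeq transcript of 2381 nt was listed at 0 in the library labelled shKSRP and stood at 1.47 ± 0.241 FPKM in the BMP2 library and 2.15 ± 0.272 FPKM in the mock library.

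Rb1, the retinoblastoma gene (chromosome 14, 73595309 to 73725598, minus strand), was listed at 0 in the library labelled shKSRP and stood at 6.55 ± 0.324 FPKM in the BMP2 library and 7.34 ± 0.316 FPKM in the mock library. The BMP2 library and mock were close (log2 ratio −0.14, −0.26 to −0.03). In the BMP2 library alone, an assembled transcript without a RefSeq gene (2.26 FPKM) overlapped exons of Rb1 by 1783 nt on the opposite strand. Reads of that overlap cannot be told apart without strand. In the library labelled shKSRP the transcript was marked as supported by reads over its full length and yet listed at 0 with an interval of 0 width. In that library alone, Rb1 was placed in 1 Cufflinks locus with Itm2b, a neighbour that codes for a membrane protein and stood at 483 ± 5.71 FPKM there. Itm2b stood at 442 ± 5.78 FPKM in the BMP2 library and 262 ± 4.46 FPKM in the mock library, each time at a locus of its own. The 0 may thus be a missing estimate, and no fold is given.

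**Figure D4:**
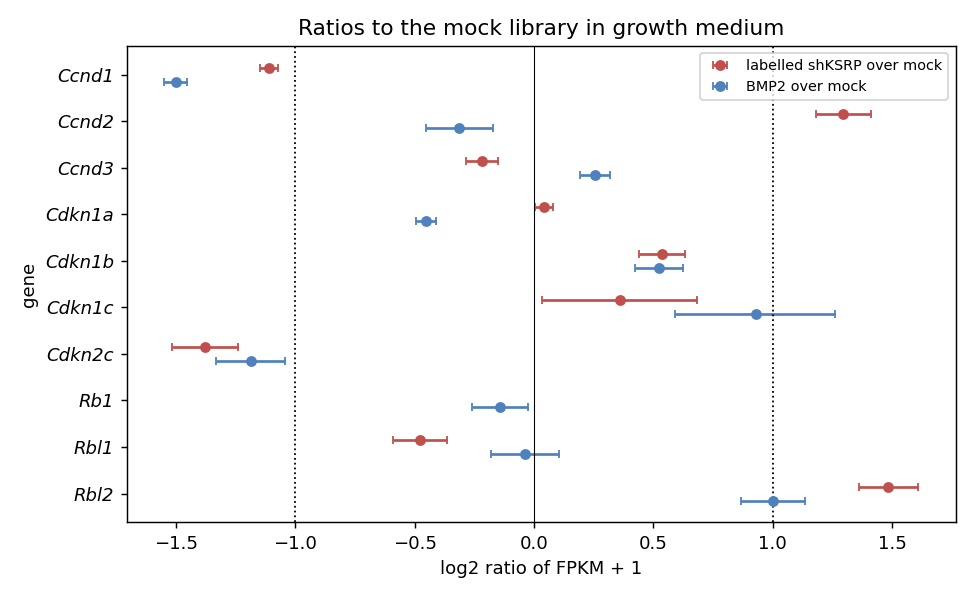
Log2 ratios of FPKM + 1 of the library labelled shKSRP and of the BMP2 library to mock, with bars spanning the interval bounds and dotted lines at the rule of size. Ccnd1 and Cdkn2c lie below −1 in both comparisons, and Rb1 has no point for the library labelled shKSRP.

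The other genes of the pathway were read from a list of 45 cyclin, CDK, E2F, MuvB and related genes, of which 41 were compared and 39 or 40 were above 0 in both libraries. In the library labelled shKSRP 7 of 39 were lower than mock and 0 higher (median log2 ratio −0.43, against −0.01 over all genes), a share near the 20.4% of all genes called in that comparison, although those split into 9.55% higher and 10.9% lower. With RefSeq transcripts alone 12 were lower and 4 higher, and with FPKM scaled to the same sum 3 were lower and 1 higher. In the BMP2 library 10 of 40 were lower and 0 higher (median −0.58, against 0.04 over all genes), beside 14.9% of all genes called and 7.23% called lower. With RefSeq transcripts alone 13 of 34 were lower and 2 higher. Between the library labelled shKSRP and the BMP2 library 0 of 39 were called in either direction, beside 11.5% of all genes (median 0.15, against −0.02), and with the same scaling 2 were higher. For RefSeq transcripts alone and for equal sums, the share of all genes called is not given here.

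The partner kinases of the D cyclins were not called. Cdk4, which shares its locus with another gene, stood at 231 ± 3.29 FPKM in the library labelled shKSRP, 235 ± 3.53 FPKM in the BMP2 library and 346 ± 4.23 FPKM in the mock library. Cdk6 was scarcer, at 4.01 ± 0.159 FPKM in the library labelled shKSRP, 3.15 ± 0.163 FPKM in the BMP2 library and 6.16 ± 0.242 FPKM in the mock library. Mock held the highest value of both. Cdk2, the later partner of cyclins E and A, which also shares its locus, stood at 10.4 ± 0.521 FPKM in the library labelled shKSRP, 17.8 ± 0.982 FPKM in the BMP2 library and 24.7 ± 0.966 FPKM in the mock library, and was called lower in the library labelled shKSRP (log2 ratio −1.18). Mnat1, the assembly factor of the CDK-activating kinase, had a log2 ratio to mock of −1.14 for the library labelled shKSRP and −0.22 for the BMP2 library.

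Of the 4 E and A cyclins, which follow the D cyclins, 2 had a ratio and both were called lower than mock in each library. Among all genes compared, 10.9% were called lower than mock for the library labelled shKSRP, against 7.23% for the BMP2 library. The count for these cyclins rests on 2 genes only. Ccne1, which encodes cyclin E1, stood at 11.4 ± 0.594 FPKM in the library labelled shKSRP, 9.87 ± 0.587 FPKM in the BMP2 library and 28.8 ± 0.989 FPKM in the mock library (log2 ratios to mock −1.26 for the library labelled shKSRP and −1.45 for the BMP2 library). Ccna2, which encodes cyclin A2, stood at 21.6 ± 0.673 FPKM in the library labelled shKSRP, 22.9 ± 0.737 FPKM in the BMP2 library and 77.3 ± 1.34 FPKM in the mock library (log2 ratios to mock −1.79 for the library labelled shKSRP and −1.71 for the BMP2 library). By the ratio of FPKM + 1, Ccna2 stood farthest from mock among the genes of the list with a ratio, in both comparisons. By FPKM without the added 1, Ccna2 stood at 29.6% of mock in the BMP2 library. E2f2 (22.9%), E2f8 (23.3%) and Mybl2 (25.8%) stood at a smaller share of mock there. Ccne2 was listed at 0 in the library labelled shKSRP and the BMP2 library and stood at 8.91 ± 0.494 FPKM in mock. Each 0 of Ccne2 may be a missing estimate, and no fold is given. Ccna1 was under 1 FPKM in every library and was not compared.

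Of 10 E2F and DP factors none was called in the library labelled shKSRP, beside 20.4% of all genes. In the BMP2 library 2 of 10, E2f8 and E2f2, were called lower, beside 14.9% of all genes called and 7.23% called lower. E2f8, a repressor of E2F targets, stood at 4.06 ± 0.288 FPKM in the library labelled shKSRP, 2.10 ± 0.239 FPKM in the BMP2 library and 9.04 ± 0.449 FPKM in the mock library (log2 ratios to mock −0.99 for the library labelled shKSRP and −1.69 for the BMP2 library). E2f2, an activator, had log2 ratios to mock of −0.81 for the library labelled shKSRP and −1.11 for the BMP2 library. E2f1, the activator that pocket proteins hold in check and which shares its locus, stood at 20.1 ± 0.818 FPKM in the library labelled shKSRP, 18.1 ± 0.715 FPKM in the BMP2 library and 29.1 ± 1.01 FPKM in the mock library, with log2 ratios to mock of −0.52 for the library labelled shKSRP and −0.66 for the BMP2 library that were not called. Mybl2 and Foxm1, the mitotic activators that join the MuvB complex and which both share a locus with another gene, were lower in both libraries. Mybl2 had log2 ratios to mock of −1.48 for the library labelled shKSRP and −1.63 for the BMP2 library, and Foxm1 had −1.19 for the library labelled shKSRP and −1.58 for the BMP2 library.

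Cdkn2d, which encodes the INK4 inhibitor p19, stood at 17.0 ± 0.925 FPKM in the library labelled shKSRP, 21.1 ± 1.09 FPKM in the BMP2 library and 46.4 ± 1.60 FPKM in the mock library (log2 ratios to mock −1.40 for the library labelled shKSRP and −1.10 for the BMP2 library). It was lower in both libraries, as its relative Cdkn2c was. The other INK4 genes, Cdkn2a and Cdkn2b, were listed at 0 in all 3 libraries. Myc, a factor that raises D cyclins and represses p21, stood at 40.9 ± 1.18 FPKM in the library labelled shKSRP, 23.5 ± 0.958 FPKM in the BMP2 library and 66.7 ± 2.40 FPKM in the mock library (log2 ratios to mock −0.69 for the library labelled shKSRP and −1.47 for the BMP2 library, which was called lower). Cks1b, a partner of the ligase subunit Skp2 that marks p27 for degradation, was listed at 0 in the library labelled shKSRP beside 81.4 ± 2.94 FPKM in the BMP2 library and 217 ± 4.74 FPKM in the mock library. In the BMP2 library it was called lower than mock (log2 ratio −1.40). The 0 in the library labelled shKSRP may be a missing estimate as for Rb1.

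**Figure D5:**
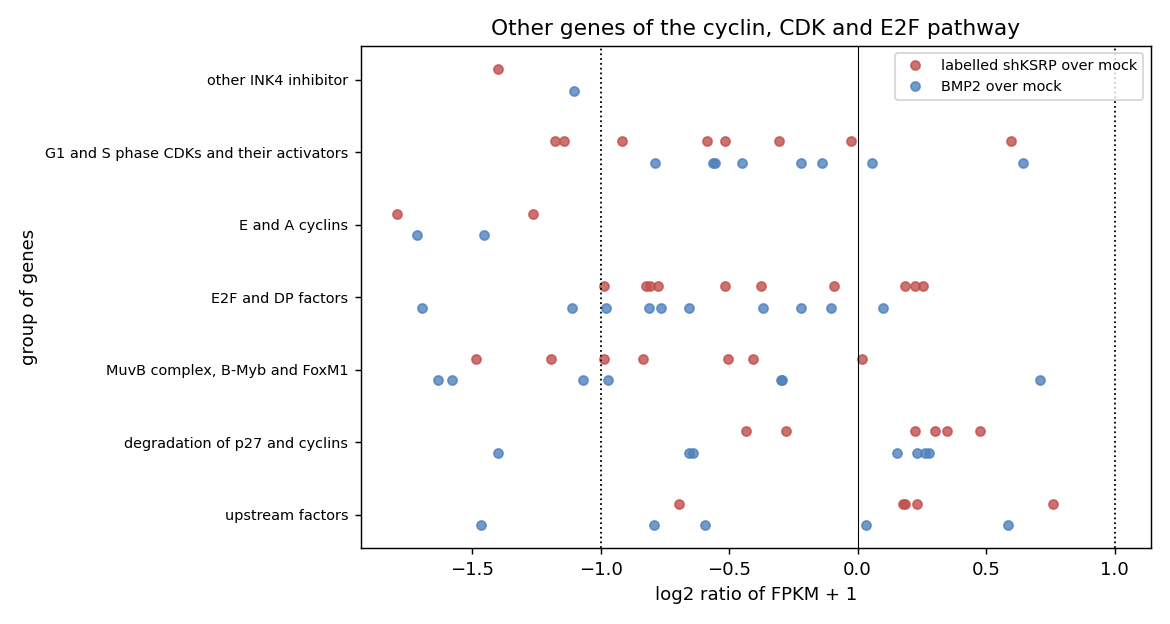
Log2 ratios of FPKM + 1 to mock for the other genes of the pathway by group, in the library labelled shKSRP and the BMP2 library, with dotted lines at the rule of size. No gene passes 1 on the higher side, and the E and A cyclins shown all lie below −1.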

How the data were processed

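RNA was selected with oligo(dT) beads, and libraries were sequenced on an Illumina HiSeq 2000, per the labels' protocols. The authors deposited 1 Cufflinks transcript file per library holding FPKM and a 95% interval for every transcript, as the file attributes state. The deposited score per transcript was not used. Tools named in the submitters' processing notes are TopHat 1.4.1, Bowtie 0.12.7, Cufflinks 1.3.0 and CASAVA 1.8, and the build is mm9. Their settings and any use of strand are not given in these sources.

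RefSeq accessions took their symbols from a RefSeq table (27563 of 28225), a GENCODE table (166) or the file itself (216), and 280 kept the accession. Assembled transcripts went to the gene of their locus or, where a locus held several genes, to the gene they overlapped most. Half-widths were combined as roots of summed squares. Depth was estimated from interval widths, and whether PCR copies were removed is not given, so intervals cover counting and assignment error only. Of 22709 genes, 11464 had 1 FPKM in at least 1 library and a transcript of at least 300 nt. A ratio needed values above 0 in both libraries, a narrowing of the planned rule. Genes of the pathway list were named where called and above 0 in all libraries (at most 8 per comparison), besides Cdk4, Cdk6, Cdk2, E2f1 and Ccne1. Cks1b, Ccne2, Cdkn2a, Cdkn2b, Ccna1, Trp53, Myod1, Foxo1, Foxo3 and neighbours of the members were named after their values were seen, and Skp1a matched no symbol. The genes nearest to Ccnd2 in both ratios to mock were named by distance, and 1 of them is not reported here. Members and lists were chosen with earlier results of these data known. Computation used Python 3.11.15 and pandas 2.3.3. The code for the calls was run on copies of the mock library with interval noise and planted changes larger than the rule of size. Those copies hold no variation between cultures, no differing assemblies and no missing estimates, so the run says nothing about how reliable the calls are.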

Additional observations from a re-analysis of the deposited data

How the results depend on the processing

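Called genes of the set, in the library labelled shKSRP against mock, numbered 4. They numbered 2 with a pseudocount of 5 or with the length trend taken out, and 3 with FPKM scaled to the same sum. In the BMP2 library against mock they numbered 3, and 1 with the length trend taken out. They numbered 4 with a pseudocount of 0.1. With a pseudocount of 5, RefSeq transcripts alone, a fixed gene length or the median log2 ratio set to 0 they numbered 2. Between the library labelled shKSRP and the BMP2 library they numbered 1, and 0 with a pseudocount of 5, and 2 with RefSeq transcripts alone or with the most abundant one. On the pathway list, 7 calls in the library labelled shKSRP against mock became 3 with a pseudocount of 5. They became 10, all lower, with a pseudocount of 0.1 or with the length trend taken out. With RefSeq transcripts alone they became 16 (4 higher, 12 lower), and with the most abundant one 15 (3 higher, 12 lower). With FPKM scaled to the same sum they became 4 (1 higher). The 10 calls in the BMP2 library became 6 with a pseudocount of 5, 7 with equal sums and 9 with a fixed gene length. They became 12, all lower, with a pseudocount of 0.1 or the median log2 ratio set to 0. With RefSeq transcripts alone or the most abundant one they became 15 (2 higher, 13 lower). The 0 calls between the library labelled shKSRP and the BMP2 library became 2 with a pseudocount of 0.1, with equal sums or with the length trend taken out, and 6 with RefSeq transcripts alone or the most abundant one. The Ccnd1 share of the D cyclins became 16.6% in the BMP2 library with RefSeq transcripts alone or the most abundant one, and with a fixed gene length it was 51.9% for the library labelled shKSRP and 68.8% for mock. The Cdkn1b share of Cip/Kip mRNA, with RefSeq transcripts alone and with the most abundant one, was 13.1% for the library labelled shKSRP, 18.9% for the BMP2 library and 3.97% for mock under both settings. With a fixed gene length it was 22.1% in the BMP2 library and 11.8% in mock. The cause of these shifts was not tested. Counts under the alternative settings stand without the share of all genes called under the same setting, which is not given here. No called ratio of the 10 genes changed sign. Ratios that were not called did so in at least 1 setting for Ccnd3 in the library labelled shKSRP against mock, for Cdkn1c, Rb1 and Rbl1 in the BMP2 library against mock, and for Cdkn1b, Cdkn1c and Rbl1 between the library labelled shKSRP and the BMP2 library. With equal sums the median log2 ratio of all genes to mock was 0.29 for the library labelled shKSRP and 0.26 for the BMP2 library. No paired analysis was possible because each group holds 1 library. Intervals cover counting and assignment only, and they widen to 25.1% of the value for Cdkn1c in mock.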
